A study of Mus musculus with 2 samples.

Results

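The heat shock proteins and their co-chaperones were followed in single cells of the mouse bone marrow niche. The 72 members were all genes of the deposited gene list whose symbols begin with Hspa, Hspb, Hspd, Hspe, Hsph or Hsp90, each followed by its family number, or with Dnaja, Dnajb or Dnajc, out of 27999 genes. By family they were 11 HSP70 genes, 3 HSP110 genes, 3 HSP90 genes, 8 Hspb genes and the 2 mitochondrial chaperonin genes. The rest were J-domain proteins of type A (4), type B (13) and type C (28). The Hspb genes, Hspb11 among them, were grouped as small heat shock proteins by symbol alone. The rule used names only and no measured value, but it was set with earlier results of these data known.

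The study held 2 droplet libraries, each 1 sample without a replicate, both from mice labelled LepR-Cre;LSL-tdTomato, strain C57Bl/6JCrl, aged 3-4 months. The first, LepR_tdT, was of LepR-Cre;tdTomato+ bone marrow cells, that is, of cells in which Cre driven by the leptin receptor gene had switched on a red reporter. Such a reporter also stays on in the descendants of those cells. The second, EC, was of bone marrow endothelial cells. The protocol text describes enzymatic digestion of flushed marrow, an intravenous VE-Cadherin antibody, and CD45, Ter119 and LepR stains for some samples, and tamoxifen for others. Its sample numbers overlap, so which steps and gates apply to these libraries is uncertain.

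The libraries held 18152304 UMIs (unique molecular identifiers, each a counted molecule) in EC and 21983361 in LepR_tdT, with 4536 and 4250 cells and a median of 3084.5 and 4347 UMIs per cell. Of 8786 cells, 42 cell barcodes occurred in both libraries. Cell types were not taken from the deposited cell table: cells were clustered without the members, and clusters were named "-like" from fixed markers. Of the LepR_tdT cells 2962 were stromal-like (69.7%), with Lepr at 664 CPM (counts per 1000000 UMIs of the class) and Cdh5, the VE-Cadherin gene, at 1.41 CPM. Of the EC cells 3656 were endothelial-like (80.6%), with Lepr at 16.6 CPM and Cdh5 at 838 CPM. These classes were named from markers, so their marker levels are no check of the labels. Over all cells of each library, whatever their class, Lepr stood at 608 CPM in LepR_tdT and 16.4 CPM in EC. Cdh5 stood at 9.48 CPM in LepR_tdT and 793 CPM in EC, so the library labels and these markers went together. A further 640 LepR_tdT and 733 EC cells formed shallow clusters led by mitochondrial genes, which stayed unnamed and enter no comparison.

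Heat shock proteins keep other proteins folded. HSP70 chaperones bind exposed stretches of unfolded chains, J-domain proteins hand these clients to HSP70 and start its ATP cycle, HSP110 proteins exchange the nucleotide, HSP90 finishes the folding of kinases and receptors, and small heat shock proteins hold aggregating chains. Several members are always present, while others are switched on by the transcription factor HSF1, which binds inverted GAA and TTC units called heat shock elements.

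Below are the 250 bases upstream of the RefSeq start (assembly GRCm38.p6, read on the gene's strand, 5′ to 3′) of both inducible HSP70 genes and of the small heat shock gene Hspb1. The levels of these 3 genes varied between the cells described here, and none of the 3 windows overlaps an annotated exon of its own gene. All 3 hold the paired unit marked below, and they do not stand for all such windows. A window of Dnajb1 (chr8:83607925-83608174) and another of Dnaja1 (chr4:40722672-40722921) also overlap no exon of their own genes. Both hold no such unit and are not printed. Capitals mark a pair of inverted units, GAANNTTC or TTCNNGAA, searched on both strands. The windows lie at chr17:34972157-34972406 on the minus strand (Hspa1a), chr17:34959239-34959488 on the minus strand (Hspa1b) and chr5:135887669-135887918 on the plus strand (Hspb1).
Hspa1a: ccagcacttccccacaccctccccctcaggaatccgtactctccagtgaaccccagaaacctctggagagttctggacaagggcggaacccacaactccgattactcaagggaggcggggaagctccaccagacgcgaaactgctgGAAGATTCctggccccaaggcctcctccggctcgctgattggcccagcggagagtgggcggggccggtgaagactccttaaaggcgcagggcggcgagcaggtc
Hspa1b: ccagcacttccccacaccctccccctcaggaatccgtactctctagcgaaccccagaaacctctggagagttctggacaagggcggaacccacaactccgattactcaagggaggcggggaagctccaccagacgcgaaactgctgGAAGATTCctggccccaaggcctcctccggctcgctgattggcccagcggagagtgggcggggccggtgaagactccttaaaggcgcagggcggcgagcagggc
Hspb1: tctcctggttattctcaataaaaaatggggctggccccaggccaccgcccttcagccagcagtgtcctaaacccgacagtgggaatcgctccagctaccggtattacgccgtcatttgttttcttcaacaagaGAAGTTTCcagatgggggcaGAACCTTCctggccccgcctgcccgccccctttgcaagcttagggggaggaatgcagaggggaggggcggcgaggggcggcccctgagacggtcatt

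The windows of Hspa1a and Hspa1b were identical at 247 of 250 bases and held the paired unit at the same place, beginning 104 bases before the start. Counted from 1 at the 5′ end of the printed window, Hspa1b differed from Hspa1a by C44T, T47C and T249G. Hspb1 held 2 paired units, beginning 117 and 97 bases before its start. RefSeq promoter windows were matched for 58 of the 72 members. The paired unit occurred in 14 of the 58 (24.1%), against 14.5% of 27025 genes. A gene was counted where any of its windows held the unit, and some genes had several windows. A longer element of 3 alternating units was found for 3 of the 58 members (5.17%), Dnajb6, Hspd1 and Hspe1, against 0.514% of all genes. Whether windows of these members share bases was not examined. A match describes letters and is no evidence of a bound site. The members named without a window were Dnajc11, Dnajc12, Dnajc18, Dnajc2, Dnajc22, Dnajc30, Dnajc5, Dnajc5b, Hsp90aa1, Hsp90ab1, Hspa13, Hspa8, Hspa9 and Hspb2.

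As a group, the members took nearly the same share of all UMIs in both main classes. They made up 0.803% of the stromal-like UMIs (113621 UMIs) and 0.827% of the endothelial-like UMIs (105827 UMIs). In stromal-like cells 66 of 72 members had at least 1 UMI, and in endothelial-like cells 64. Dnajb7, Dnajb8, Dnajc22, Dnajc5g and Hspb3 had no UMI in either class, where the 3 UMIs that a count of 0 allows would be 0.212 CPM and 0.234 CPM. Dnajb13 had 5 endothelial-like UMIs and no stromal-like UMI.

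With 1 library per group no test was possible. The 95% intervals are exact Poisson intervals for levels, exact Clopper-Pearson intervals for shares of cells, and for ratios the exact binomial interval given both counts. All of these cover counting error only, and neither animals nor preparations. The intervals of levels and ratios also leave out the spread between cells, and are too narrow where few cells hold most UMIs of a gene. A gene was compared where both classes together held at least 20 UMIs, and was called higher where the ratio was at least 2-fold and its interval excluded equality.

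The first comparison asked which members separated the mesenchymal cells from the endothelium. Inducible HSP70 and the small heat shock protein Hspb1 were higher in endothelial-like cells, as were Dnajc15 and Hspa12b, while the constitutive chaperones of the cytosol lay close together. Of 60 members compared, 7 were called higher in endothelial-like cells, where 17.6% of all 12855 genes compared were, and 5 in stromal-like cells, where 21.2% of all genes were. The other 48 were called in neither. The median log2 ratio of stromal-like to endothelial-like cells was 0.19 over the members and 0.10 over all genes. The 2 classes come from different libraries, so cell type and preparation cannot be told apart in this comparison.

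Hspa1a and Hspa1b encode the inducible cytosolic HSP70, and their genes sit side by side on chromosome 17 (34969190 to 34972156 and 34956436 to 34959238, GRCm38, minus strand). Hspa1a stood at 253 CPM (interval 245 to 262) in the stromal-like class, against 735 CPM (720 to 750) in the endothelial-like class. Hspa1b stood at 18.2 CPM (16.1 to 20.6) and 134 CPM (127 to 140). The log2 ratio of stromal-like to endothelial-like cells was -1.54 for Hspa1a (-1.59 to -1.48) and -2.87 for Hspa1b (-3.07 to -2.68). Without the sinusoidal-like cluster 2, described below, Hspa1a no longer reached 2-fold (log2 ratio -0.78). Within the LepR_tdT library alone, 57 endothelial-like cells held Hspa1a at 1501 CPM (1331 to 1687) and Hspa1b at 106 CPM (65.0 to 164), also above the stromal-like cells of that library. In droplets without a cell Hspa1a stood at 694 CPM in EC and 310 CPM in LepR_tdT, so free RNA of these genes was present in both libraries at levels like those of the cells. With free RNA subtracted at 10% of each class, the log2 ratios were -1.59 for Hspa1a and -2.93 for Hspa1b.

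Hspb1, the small heat shock protein also known to act on actin filaments, had levels of 122 CPM (116 to 127) in stromal-like cells against 651 CPM (637 to 665) in endothelial-like ones, a log2 ratio of -2.42. Dnajc15, a J-protein of the mitochondrial inner membrane, stood at 38.1 CPM and 146 CPM (log2 ratio -1.93, -2.07 to -1.79). Hspa12b, a distant HSP70 relative known from endothelium, stood at 2.54 CPM (36 UMIs) and 29.5 CPM (377 UMIs), the lowest ratio of the members at a log2 of -3.53. The 57 endothelial-like cells of the LepR_tdT library held Hspb1 at 1177 CPM (1027 to 1342) and Hspa12b at 47.9 CPM (9 UMIs, 21.9 to 91.0). Hspa4l, an HSP110 relative, and Dnajc28 completed the 7 at few UMIs, with log2 ratios of -1.31 and -1.45.

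On the stromal-like side 5 members were called. Hspa12a, the paralog of Hspa12b, had 47 stromal-like and 3 endothelial-like UMIs, a log2 ratio of 3.83 (2.19 to 6.15). The paralogs Hspa12a and Hspa12b therefore lay at opposite ends of the members. Hspb6, a small heat shock protein of muscle, had 107 and 28 UMIs (log2 ratio 1.79), and Dnajb3 had 68 and 24 (1.36). Hspb8, which works with the co-chaperone Bag3, and the membrane J-protein Dnajc25 had log2 ratios of 1.19 and 1.05. These last 2 were named after their values were seen.

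Of the members of the endoplasmic reticulum (ER), Hspa5 and Dnajc3 came just under 2-fold on the stromal-like side. Hspa5, the ER HSP70 known as BiP, stood at 1071 CPM in stromal-like cells against 560 CPM in endothelial-like ones (log2 ratio 0.94, 0.90 to 0.98). Dnajc3, its J-protein partner, stood at 370 CPM and 190 CPM (0.96, 0.89 to 1.03). Dnajb11, another ER J-protein, had a log2 ratio of 0.63, and Hsp90b1, the ER HSP90, one of 0.18. Of the 18 other ER folding genes listed, 4 were called on the stromal-like side and 1 on the endothelial-like side, where 21.2% and 17.6% of all genes were, with a median log2 ratio of 0.30. They included the collagen chaperone Serpinh1 (1117 CPM against 334 CPM), the prolyl isomerase Ppib (1213 CPM against 475 CPM) and the stress factor Ddit3 (48.2 CPM against 19.6 CPM). The transcription factor Xbp1 was the 1 that was higher in endothelial-like cells, at 768 CPM against 176 CPM. The ER chaperones Canx (-0.67, -0.74 to -0.59) and Hyou1 (-0.53, -0.83 to -0.23) also had ratios on the endothelial-like side, under 2-fold.

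The cytosolic and mitochondrial housekeeping members named here were not called. Hspa8, the constitutive HSP70, stood at 1579 CPM in stromal-like cells against 1274 CPM in endothelial-like ones (log2 ratio 0.31). Hsp90ab1, the constitutive HSP90, stood at 977 CPM and 1275 CPM (-0.38), and its inducible paralog Hsp90aa1 at 382 CPM and 303 CPM (0.34). Log2 ratios were 0.10 for Dnajb1, the main J-protein of inducible HSP70, -0.21 for the farnesylated J-protein Dnaja1, -0.22 for Dnajb6 and -0.23 for the splicing-associated Dnajc8. They were -0.05 for Hspe1, the lid of the mitochondrial chaperonin, and 0.23 for Dnajc19 of the mitochondrial import motor. Of the fixed partner lists, 2 of 29 cofactors were called, both higher in stromal-like cells (Cryab and Hsf4, at 2.13 and 1.47 on the log2 scale), and none of 13 cytosolic chaperonin genes or 10 mitochondrial folding genes was called.

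**Figure D1:**
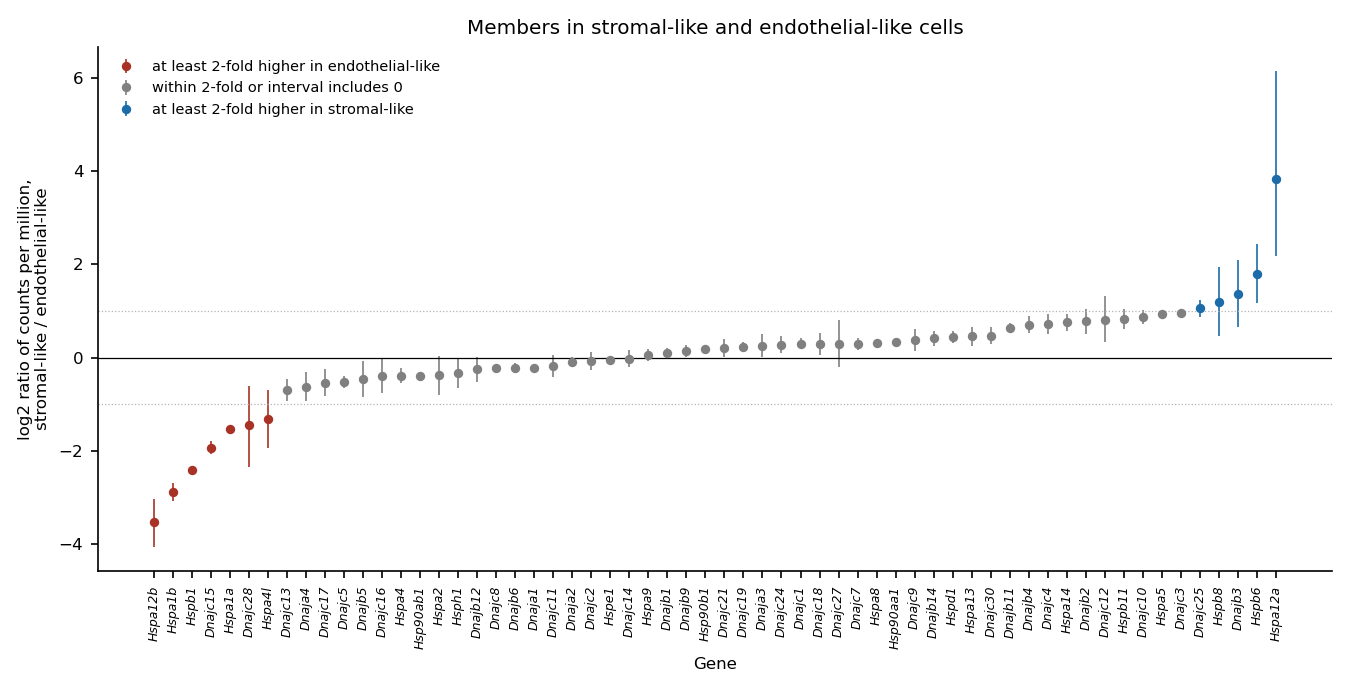
Log2 ratio of CPM in stromal-like to endothelial-like cells for the 60 members compared, with exact binomial 95% intervals (counting error only) and dotted lines at 2-fold. Hspa12b, Hspa1b and Hspb1 form the low end and Hspa12a the high end, while 48 members lie between the calls.

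Within the EC library the endothelial-like cells split into 369 arterial-like and 3287 sinusoidal-like cells, and few members were called between them. Of 58 members compared, 1 was called higher in arterial-like cells (5.32% of all genes were) and 0 in sinusoidal-like cells (2.91% of all genes were). The 1 was Hspa2, an HSP70 best known from the testis, with 22 UMIs (16.2 CPM) against 90 UMIs (7.87 CPM), a log2 ratio of 1.04 (0.30 to 1.73). It came to less than 2-fold with scaling by trimmed means (0.89) or by the median ratio (0.95), which lower the log2 ratio of every gene by 0.15 and 0.10, and with clustering that kept the members (0.98). Hspa12b stood at 49.3 CPM in arterial-like and 27.1 CPM in sinusoidal-like cells (log2 ratio 0.87), and Hsp90ab1 at 1608 CPM and 1235 CPM (0.38). Hspa1b stood at 75.1 CPM and 141 CPM (-0.90, -1.21 to -0.61), and Hspa1a at 588 CPM and 753 CPM (-0.36). Hspa1b passed 2-fold on the sinusoidal-like side with scaling by trimmed means, cells weighted equally or thinned cells (-1.05). The ratio of Hspa1a was 0.53 when cluster 2 was left out of the sinusoidal-like cells.

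The sinusoidal-like class was itself made of unlike clusters. Cluster 1 held 2152 EC cells and cluster 2 held 1088, led by Apold1, Nr4a2, Gem, Atf3 and Klf4, with a median of 3130 and 3912 UMIs per cell. None of the members had been used to form the clusters, and 4 were called higher in cluster 2. Hspa1a stood at 1306 CPM in cluster 2 and 397 CPM in cluster 1 (log2 ratio 1.72, 1.65 to 1.79). Dnajb1 stood at 177 CPM and 47.7 CPM (1.89), Hsp90aa1 at 453 CPM and 209 CPM (1.12), and Hsph1, the inducible HSP110, at 21.1 CPM and 8.28 CPM (1.35). These were the 4 called of 59 compared in cluster 2 (1.83% of all genes were), and 0 were called in cluster 1 (0.726% of all genes were). Hspb1 (927 CPM against 471 CPM, 0.98) and Hspa1b (193 CPM against 106 CPM, 0.86) came just under 2-fold, and each passed it under some alternatives, Hspb1 under 4 and Hspa1b under 1.

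Hspa5 (590 CPM against 554 CPM) and Hsp90b1 (499 CPM against 600 CPM) of the ER stayed near equality between the clusters. All 16 genes of the immediate early list, transcription factors and feedback genes that respond within minutes to many stimuli, were called higher in cluster 2, with a median log2 ratio of 2.03. Atf3 and Klf4 of this list were also named above as leading the cluster. The list was left out of the clustering, but Apold1, Nr4a2 and Gem are not on it. Their part in forming the cluster was not tested. Atf3 stood at 84.9 CPM against 8.14 CPM, and Nr4a1 at 230 CPM against 25.3 CPM. The part of this programme in the levels of the members was not tested. The comparison was chosen after the clusters were seen and describes how those cells differ.

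In the LepR_tdT library, 248 osteolineage-like cells were set against the stromal-like cells. Of 59 members compared, 2 were called higher in osteolineage-like cells (4.88% of all genes were) and 0 in stromal-like cells (5.25% of all genes were). They were Hspa4l, with 12 UMIs (8.94 CPM) against 33 UMIs (2.33 CPM), and Hspa12a, with 17 UMIs (12.7 CPM) against 47 UMIs (3.32 CPM), at log2 ratios of 1.94 and 1.93. Hspa1a stood at 402 CPM and 253 CPM (0.67, 0.53 to 0.80). Hspb1 stood at 82.0 CPM and 122 CPM (-0.57). The median log2 ratio of all genes with at least 100 UMIs was -0.10 in this comparison. Cryab, a small heat shock protein outside the naming rule and listed with the cofactors, stood at 59.6 CPM in osteolineage-like and 1.98 CPM in stromal-like cells (log2 ratio 4.86).

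Another group of 245 LepR_tdT cells, cluster 7, was led by Hsd11b1, Kit, Cxcl5 and Comp and stayed unnamed, although it held Lepr at 583 CPM. In this cluster 5 members were called higher than in stromal-like cells. Hspb1 stood at 449 CPM against 122 CPM (log2 ratio 1.88, 1.75 to 2.01), Hspa1a at 813 CPM against 253 CPM (1.68), Hspa1b at 42.9 CPM against 18.2 CPM (1.23, or 0.89 in thinned cells) and Dnajb1 at 218 CPM against 101 CPM (1.11). With Hspa12a (16 UMIs against 47 UMIs, 1.71) these were the 5 called of 59 compared (3.05% of all genes were), and 0 were called higher in stromal-like cells (3.52% of all genes were). Hsp90aa1 stood at 712 CPM against 382 CPM (0.90, or 1.04 with cells weighted equally), and Hspa5 at 1014 CPM against 1071 CPM (-0.08). Of the immediate early list, 5 of 16 genes were called higher in cluster 7. This comparison, too, was chosen after the clusters were seen.

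**Figure D2:**
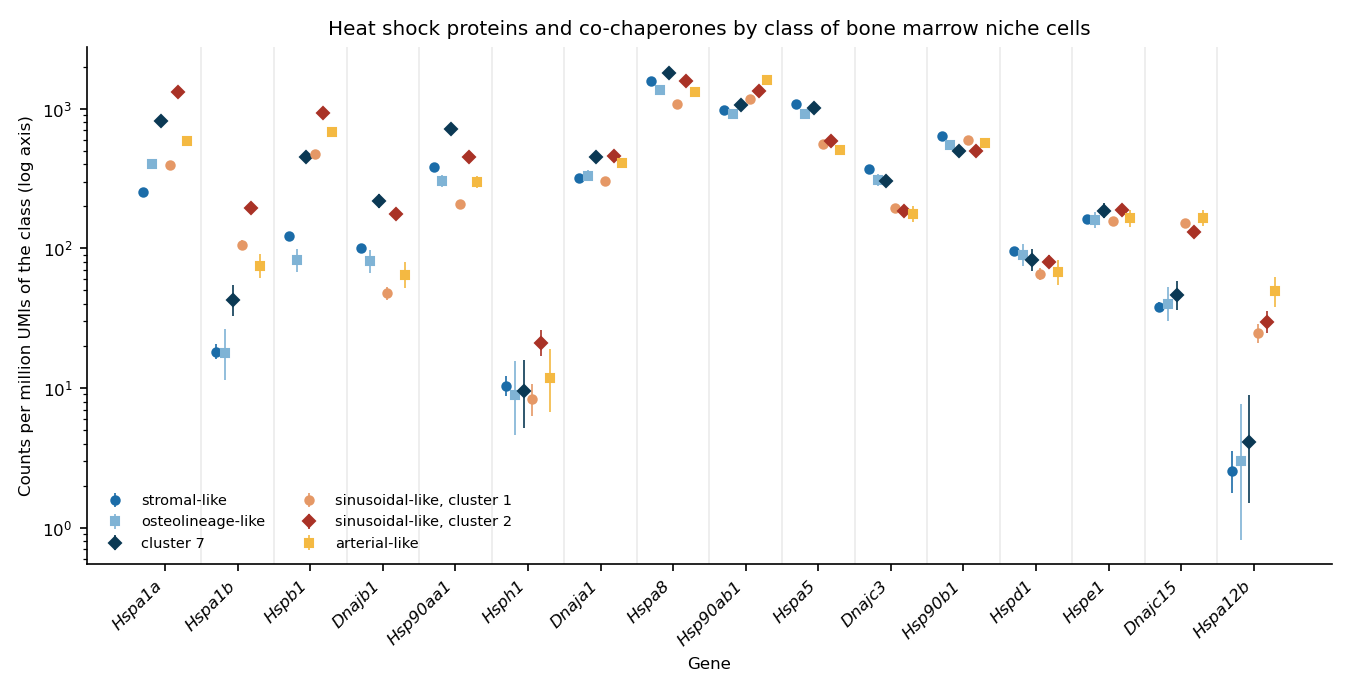
CPM (log axis) of 16 members in 6 classes of the LepR_tdT (blue) and EC (red to yellow) libraries, with exact Poisson 95% intervals that cover counting error only. Hspa1a, Dnajb1 and Hsp90aa1 are higher in cluster 2 than in cluster 1 and in cluster 7 than in stromal-like cells, while Hspa5 and Hsp90b1 move little within a library.

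Small classes showed members that the main classes nearly lacked. In 17 pericyte-like cells of LepR_tdT, Hspb2, a small heat shock protein of muscle, had 8 UMIs (114 CPM, 49.2 to 225), where 2962 stromal-like cells had 2 UMIs (0.141 CPM). Hspb8 also had 8 UMIs there (114 CPM) against 4.10 CPM in stromal-like cells, and Hspb7, another muscle small heat shock protein, had 3 UMIs. Hspa1a stood at 1824 CPM (1522 to 2168) in these 17 cells. Dnajc9, a histone chaperone of replicating cells, stood at 170 CPM (135 to 212) in 42 granulocyte-like EC cells and 160 CPM (116 to 214) in 24 granulocyte-like LepR_tdT cells, against 25.4 CPM in stromal-like and 19.5 CPM in endothelial-like cells. These genes were named after their values were seen.

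Inducible HSP70 was concentrated in few cells. The top 10% of stromal-like cells held 82.4% of all Hspa1a and Hspa1b UMIs of the class, and the top 10% of endothelial-like cells held 57.5%. To compare cells at equal depth, each cell was thinned at random to 1000 UMIs, and cells with 3 or more Hspa1a and Hspa1b UMIs among them were called high. Of 2945 stromal-like cells deep enough, 100 were high (3.40%, 2.77 to 4.11) and 2558 had none. Of 3592 endothelial-like cells, 434 were high (12.1%, 11.0 to 13.2) and 2387 had none. The shallower cells left out numbered 17 and 64. Cells with none are those with none after thinning: in full counts they still held 722 Hspa1a and 103 Hspa1b UMIs in the stromal-like class and 933 and 293 in the endothelial-like class.

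High is a range of 1 measure and not a cell type. Just inside the edge, 34 stromal-like and 156 endothelial-like cells had exactly 3 UMIs, and just outside it 68 and 244 had 2. The share of high cells was 5.61% in cluster 1 (119 of 2120 cells, 4.67 to 6.68) and 26.1% in cluster 2 (283 of 1084, 23.5 to 28.8). It was 7.27% in arterial-like cells, 6.12% in osteolineage-like cells, 12.3% in cluster 7 and 21.4% (12 of 56 cells, 11.6 to 34.4) in the endothelial-like cells of LepR_tdT. As a reference for free RNA, 2 of 41 granulocyte-like EC cells (4.88%, 0.596 to 16.5) and 0 of 44 erythroid-like EC cells were high, the latter allowing a share of up to 6.82% by the limit of 3 counts and 8.04% by the exact interval. In LepR_tdT 1 of 24 granulocyte-like cells was high (4.17%, 0.105 to 21.1), a share above that of stromal-like cells with an interval that spans it. So few cells do not fix a background share for the stromal-like cells. Whether the granulocyte-like cells held transcripts of their own was not tested. Free RNA of LepR_tdT held Hspa1a at 310 CPM and Hspa1b at 28.1 CPM. Median depths were 10156, 779 and 9280 UMIs over all cells of these 3 classes, against 3409 for the endothelial-like class and 4644 for the stromal-like class.

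**Figure D3:**
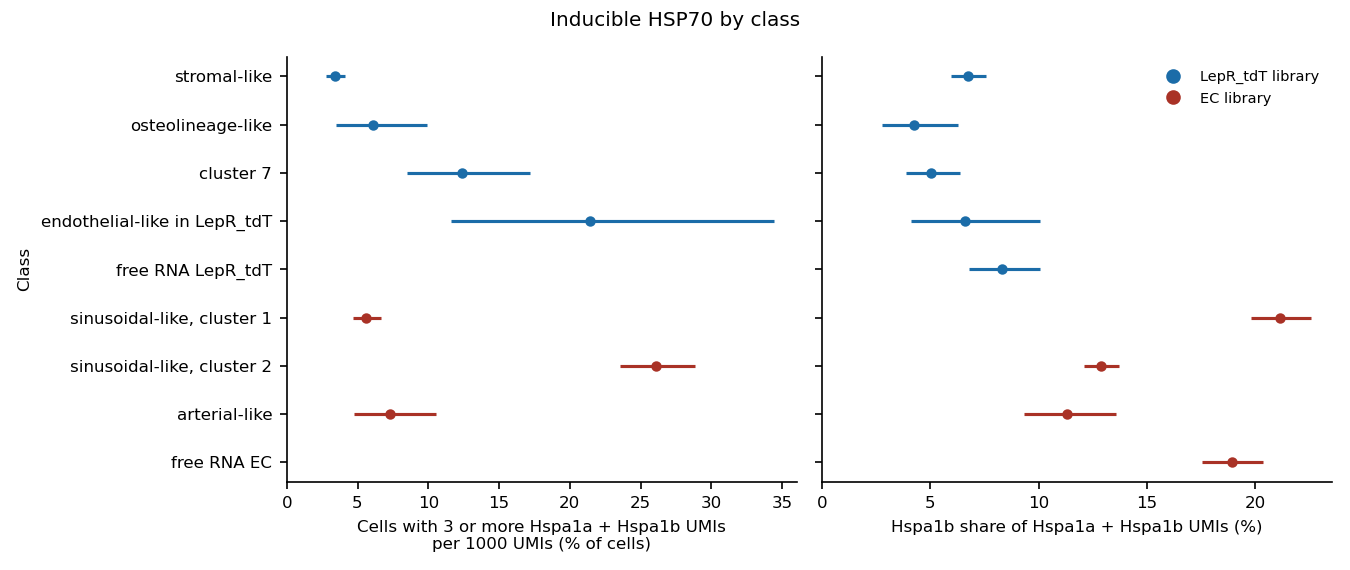
Left, the percentage of cells with 3 or more Hspa1a and Hspa1b UMIs per 1000 UMIs; right, the Hspa1b share of Hspa1a and Hspa1b UMIs, both by class, with exact Clopper-Pearson 95% intervals and colours for the libraries. Cluster 2 has 26.1% high cells against 5.61% in cluster 1, and the Hspa1b share is below 10% in the 5 LepR_tdT rows and above 10% in the 4 EC rows.

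High cells of both classes were also compared with cells with none for the other members. In stromal-like cells 6 of 56 other members compared were called higher in high cells than in cells with none (1.24% of 10932 genes were), and 0 were called lower (0.915% of genes were). In endothelial-like cells 5 of 55 were called higher (1.16% of 10759 genes were) and 0 lower (1.08% of genes were). Called in both were Dnajb1, Hsp90aa1, Hspb1 and Hsph1, which are 66.7% of the stromal-like and 80% of the endothelial-like calls. No matching overlap over all genes is given here, so these shares are not read as particular to the members. The other 50 members of each class were called in neither direction, and the median log2 ratio over the members compared was 0.02 in both classes. Hspa1a and Hspa1b chose the cells and are not read here, and the levels are CPM of the UMIs of all other genes.

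Dnajb1, the J-protein that drives clients onto inducible HSP70, stood in stromal-like cells at 86.2 CPM in cells with none, 147 CPM in cells with 1 to 2 UMIs per 1000 and 334 CPM in high cells. In endothelial-like cells it stood at 56.5 CPM, 106 CPM and 268 CPM over the same 3 bands. The order of the 3 bands was the same in both classes, with log2 ratios of high to none of 1.95 (1.70 to 2.20) and 2.24 (2.05 to 2.44). Hspb1 was at 96.0 CPM, 221 CPM and 477 CPM in stromal-like cells, and at 440 CPM, 753 CPM and 1548 CPM in endothelial-like cells. Its ratios were 2.31 and 1.81 (1.74 to 1.89). Among the high stromal-like cells, the 4 with 10 or more UMIs per 1000 had no UMI of Hspb1, with an upper limit of 253 CPM, and the other 96 stood at 493 CPM.

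Hsp90aa1, the inducible cytosolic HSP90, went from 307 CPM to 1175 CPM in stromal-like cells (1.94, 1.80 to 2.07) and from 209 CPM to 714 CPM in endothelial-like cells (1.78, 1.67 to 1.88). Hsph1, which resets HSP70 by nucleotide exchange, rested on few UMIs in stromal-like cells, 12 in high cells and 109 in cells with none (1.54, 0.54 to 2.40). In endothelial-like cells it had 53 and 75 UMIs (1.85, 1.32 to 2.38). With the thinned counts the ratio of Hsph1 in stromal-like cells was 0.22.

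Some members were called in 1 class. Dnaja1 stood at 874 CPM in high stromal-like cells against 283 CPM (1.63, 1.47 to 1.78), and at 514 CPM against 335 CPM in endothelial-like cells (0.62, 0.50 to 0.73). Dnajc16, a J-protein of the ER membrane, had 10 UMIs in high stromal-like cells against 92 (1.52, 0.41 to 2.47), and a ratio of -0.28 in endothelial-like cells. Its call was lost when cells were weighted equally (0.97) or when 2 UMIs sufficed (0.96). Dnaja4, another type A J-protein, had 43 UMIs in high endothelial-like cells against 106 (1.05, 0.51 to 1.58), and 1 UMI against 137 in stromal-like cells (-2.37, -7.69 to 0.13). The differences between the classes were not tested.

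The constitutive chaperones were not called. Hspa8 stood at 2132 CPM in high stromal-like cells against 1533 CPM (0.48, 0.38 to 0.57), and at 1801 CPM against 1171 CPM in endothelial-like cells (0.62, 0.56 to 0.68). Hsp90ab1 had ratios of 0.80 and 0.30. Dnajb4, a cytosolic J-protein close to Dnajb1, had ratios of 0.72 (37 UMIs against 595) and 0.85 (82 UMIs against 232). These intervals excluded equality, but the sizes stayed under 2-fold. On the other side, Dnajc13 had the lowest ratio in endothelial-like cells, -0.78 (-1.375 to -0.23, 30 UMIs against 263), also under 2-fold. In stromal-like cells it had 0.13 (-1.02 to 1.08).

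Apart from Dnajc16, no member of the ER or mitochondria was called. Hspa5 had log2 ratios of 0.09 (-0.04 to 0.21) and -0.03 (-0.13 to 0.08), and Hsp90b1 of -0.17 (-0.36 to 0.003) and -0.28 (-0.39 to -0.17). Dnajc3 had -0.28 (-0.53 to -0.04) and -0.22 (-0.42 to -0.04), and Dnajb11 0.12 (-0.24 to 0.45) and -0.28 (-0.56 to -0.02). Both intervals of Dnajc3 and the endothelial-like ones of Hsp90b1 and Dnajb11 lay below equality. Hspe1 had 0.12 (-0.22 to 0.44) in stromal-like cells and 0.55 (0.38 to 0.72), an interval that excluded equality, in endothelial-like cells, where Hspd1, its chaperonin partner, had 0.17 (-0.11 to 0.45). Hspd1 and Hspe1, whose windows hold the 3-unit element, were thus not among the members called.

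**Figure D4:**
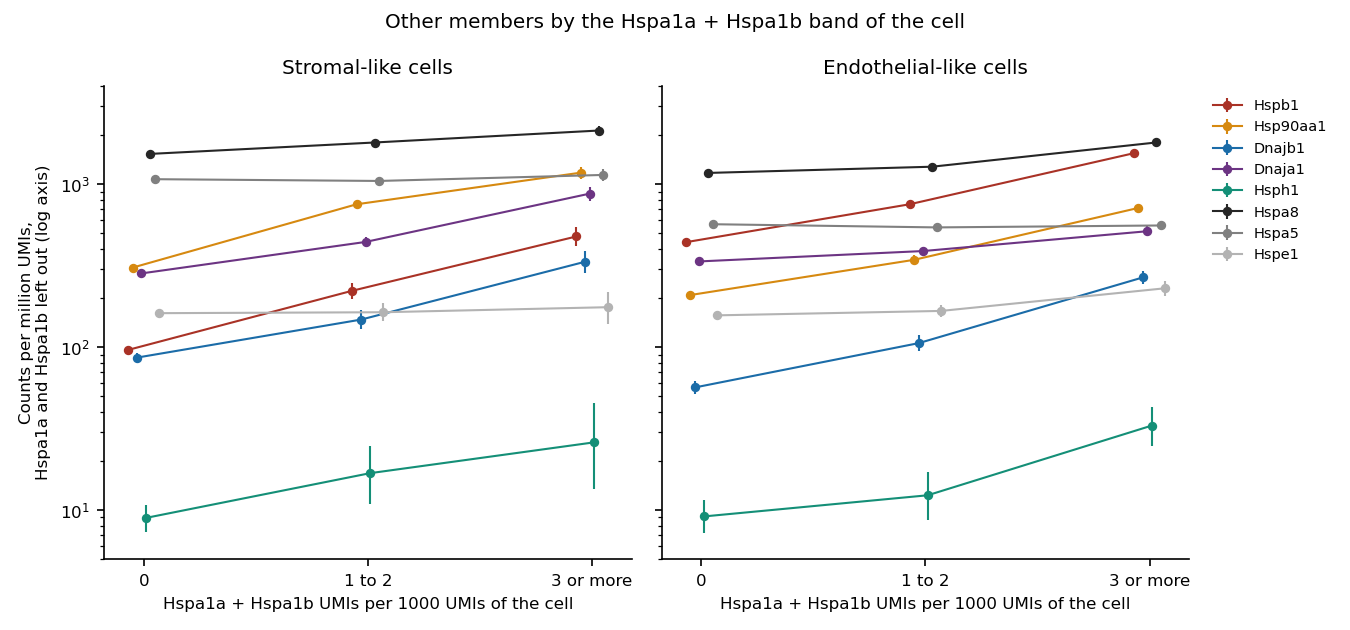
CPM of 8 members (log axis, UMIs of Hspa1a and Hspa1b left out of the total) in cells with 0, 1 to 2, and 3 or more Hspa1a and Hspa1b UMIs per 1000 UMIs, in stromal-like and endothelial-like cells, with exact Poisson 95% intervals. Hspb1, Hsp90aa1 and Dnajb1 climb over the bands in both panels, and Hspa5 is flat.

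The pattern was also seen within single clusters. Among cluster 1 cells, 4 of 54 members were called higher in high cells (1.38% of all genes were): Hspb1 (1.76), Dnajb1 (1.36), Dnajb4 (1.29) and Hsp90aa1 (1.05). Among cluster 2 cells, 5 of 50 were called (0.684% of all genes were): Hsp90aa1 (1.84), Dnajb1 (1.77), Hsph1 (1.74), Hspb1 (1.71) and Dnaja4 (1.04). Hsph1 in cluster 1 rested on 7 UMIs in high cells, with a ratio of 1.31 whose interval reached -0.10. Hspb1, Dnajb1 and Hsp90aa1 were thus called within each of the 2 clusters.

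Cofactors of the same machines were followed too. Of the HSP90 and HSP70 cofactor list, 0 of 27 genes in stromal-like and 0 of 28 in endothelial-like cells were called, with median log2 ratios of -0.05 and -0.01. With 1.24% and 1.16% of all genes called higher, a count of 0 in lists of this size lies near the background and says nothing particular of the cofactors. The largest were the HSP90 isomerase Ppid (0.83) in stromal-like cells and Hspbap1 (0.97) in endothelial-like cells. The cytosolic chaperonin list had 0 of 13 called in both classes and the mitochondrial folding list 0 of 10. Of 18 ER folding genes, 0 were called in stromal-like cells and 1, Ddit3, in endothelial-like cells (36.7 CPM against 14.6 CPM).

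The immediate early list moved with the inducible members. In high stromal-like cells 10 of 16 genes were called higher, with a median log2 ratio of 1.29, and in high endothelial-like cells 14 of 16, with a median of 1.34. Atf3 stood at 45.5 CPM against 6.32 CPM in stromal-like and at 113 CPM against 19.4 CPM in endothelial-like cells. Among the genes outside the members with the highest ratios in high stromal-like cells were Chka (2.14), Jun (2.13), Fosb (1.76), Ier5 (1.65), Gadd45b (1.62), Klf6 (1.42), Fos (1.40), Rasl11a (1.36) and Klf4 (1.35). In high endothelial-like cells they were Cxcl10 (2.68), Atf3 (2.55), Phlda1 (2.12), Cyr61 (1.87), Egr1 (1.85), Ppp1r15a (1.71), Nr4a1 (1.56), Ier3 (1.56), Ier2 (1.53) and Nfkbiz (1.48). The part of these genes in the result was not tested.

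Depth, mitochondrial share and cell type markers were compared between high cells and cells with none. Median UMIs were 4744.5 and 4604.5 in stromal-like cells, and 3644.5 and 3328 in endothelial-like cells. Mitochondrial genes took 2.47% and 2.33% of UMIs in stromal-like cells, and 3.77% and 3.97% in endothelial-like cells. The 8 stromal markers summed to 51787 CPM in high and 51015 CPM in other stromal-like cells, and the 8 endothelial markers to 6519 CPM and 6814 CPM in endothelial-like cells. Markers of granulocytes summed to 54.2 CPM against 62.3 CPM in stromal-like cells and 190 CPM against 176 CPM in endothelial-like cells. Those of erythroid cells summed to 117 CPM against 118 CPM and 210 CPM against 187 CPM. In high stromal-like cells 5 of 8 endothelial markers were at 0, and the list summed to 15.2 CPM against 23.1 CPM. The 8 arterial markers were higher there, at 47.7 CPM (22 UMIs) against 29.1 CPM, a log2 ratio of 0.71 (0.02 to 1.33), with 5 of them at 0. Macrophage markers summed to 19.5 CPM against 10.9 CPM (0.84), megakaryocyte markers to 56.4 CPM against 37.4 CPM (0.59) and chondrocyte markers to 54.2 CPM against 37.6 CPM (0.53), each with an interval that included equality. In high endothelial-like cells, macrophage markers summed to 9.95 CPM against 7.67 CPM and megakaryocyte markers to 51.6 CPM against 43.7 CPM, while sinusoidal (-0.13), arterial (-0.12), pericyte (-0.14) and stromal (-0.14) markers had ratios below equality. The part of these markers in the result was not tested.

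The upstream windows can be set beside these calls. Of the 7 members called in high cells of either class, 6 had a promoter window, and 4 of these held the paired unit: Hspb1, Hsph1, Dnaja1 and Dnaja4. These counts are of genes with the unit in any window, and Dnaja1, Dnaja4 and Hsph1 had several windows. Hspa1a and Hspa1b, which chose the cells and whose windows are near copies, are not counted here. Dnajb1 and Dnajc16 did not hold it in the bases searched, and Hsp90aa1 had no window. Of the 50 other members with a window, 8 held it (16%), against 14.5% of all genes. The windows of Dnaja1, Dnaja4 and Hsph1 that held the unit overlap annotated exons of their own genes and are not printed. These shares are a description of letters in genes grouped by their values.

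The 2 inducible HSP70 genes were not used in one ratio. Hspa1b made up 6.72% of Hspa1a and Hspa1b UMIs in stromal-like cells (258 UMIs of Hspa1b and 3580 of Hspa1a, 5.95 to 7.56) and 15.4% in endothelial-like EC cells (14.7 to 16.1). In endothelial-like cells of the LepR_tdT library it was 6.62% (20 UMIs of Hspa1b against 282 of Hspa1a), like the stromal-like cells of that library and below the endothelial-like cells of EC. It was 4.26% in osteolineage-like cells and 5.01% in cluster 7. Within EC it was 21.2% in cluster 1 (19.8 to 22.5), 12.9% in cluster 2 (12.1 to 13.7) and 11.3% in arterial-like cells (9.33 to 13.6). Free RNA of the libraries had 18.9% in EC and 8.30% in LepR_tdT. The share is also given for cells with none after thinning and for high cells. These same 2 genes set the bands, so the values describe the chosen cells and are not read as a result. From cells with none to high cells, the share went from 12.5% to 3.74% in stromal-like and from 23.9% to 11.6% in endothelial-like cells. It went from 26.9% to 15.5% in cluster 1 and from 18.0% to 11.0% in cluster 2. Cluster 2 was below cluster 1 in both bands. The part of the bands in the gaps between classes was not tested. Over whole classes, the share thus differed between the libraries and between classes within EC. Cell type and library cannot be told apart for it.

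The transcripts of Hspa1a and Hspa1b are near copies: 58.8% of the 50-base windows of Hspa1a and 62.3% of those of Hspa1b occur in the other, so reads there cannot be assigned to 1 gene. In the last 500 bases no window was shared (0%). The split between the 2 genes is uncertain to the extent that reads came from the shared part.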

How the data were processed

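The deposited count matrix holds raw UMI counts per gene and barcode, per the file headers, for all barcodes of both libraries, and the authors' cell table names each cell's library. Per the submitters' processing notes, the tools were Seurat 2.3.4 and Cell Ranger 2.1.1 with mm10 as the build; their roles are not given in the sources used here. UMIs were scaled to 10000 per cell, and 1564 variable genes without the members, partner lists and immediate early genes were reduced to 30 principal components, joined by 15 neighbours and clustered (Leiden, resolution 0.5, best of 20 seeds, scanpy 1.11.5). A name needed 3 markers at 1.5-fold over all other cells; this fold for subclasses was set after the clusters were seen, and a name was withheld where another set or mitochondrial genes led. No doublets were called; an alternative leaves out the 5% of cells with most UMIs. UMIs were summed per class and the ratio script was tested on simulated data. A gene at 0 in a class was set to 3 UMIs, and was not compared where that floor reached the other class's level. Free RNA is the sum of barcodes outside the cell table with at most 100 UMIs. Named were Hspa1a, Hspa1b, members of at least 100 CPM in a main class, and the 3 highest and 3 lowest ratios of the rest, up to 4 extreme genes per partner list, and the 10 highest other genes of at least 100 CPM in high cells; exceptions are marked. Gene positions are from GENCODE M21 (GRCm38) and windows from RefSeq. The members and lists were chosen with earlier results of these data known. Some genes of the partner lists and of the highest ratios are not reported here.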

Additional observations from a re-analysis of the deposited data

How the results depend on the processing

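Of the called members covered by the rule for named genes, none changed direction under any alternative run. Hspb8 and Dnajc25, called on the stromal-like side, lay outside that rule and were not followed singly. The count higher in stromal-like than endothelial-like cells went from 5 to 2 with at least 100 UMIs, and to 3 with thinned cells or with endothelial-like cells of the LepR_tdT library. For arterial-like against sinusoidal-like cells, trimmed-mean scaling gave 0 higher, 1 lower and a median of -0.10; median ratio scaling gave 0 higher and a median of -0.045; equal weights and thinning each gave 1 lower, in all 3 cases Hspa1b. For osteolineage-like against stromal-like cells, at least 100 UMIs or thinning left 0 higher, equal weights gave 2 lower, resolution 1.0 gave 1 lower, and median ratio scaling moved the median to 0.014. Cluster 7 had 1 lower when thinned. Among high stromal-like cells, an edge of 10 UMIs (4 cells) gave 3 higher and a median of 1.36, an edge of 2 gave 1 lower and a median of 0.14, thinned counts a median of 0.13 and equal weights 2 lower. Among high endothelial-like cells the edge of 10 gave a median of 0.20 and thinned counts 1 lower. For single named members, a call was lost or gained in 4 of 290 values of the stromal-like to endothelial-like comparison, 7 of 218 arterial-like, 2 of 199 osteolineage-like, 5 of 107 between clusters 2 and 1 (4 for Hspb1, 1 for Hspa1b), 2 of 102 for cluster 7 (Hsp90aa1 gained, Hspa1b lost), and 7 of 169 and 7 of 222 values of high stromal-like and endothelial-like cells. Leaving out cluster 2, the comparisons within clusters 1 and 2, and those of clusters 2 and 7 were added after seeing the data. No paired analysis was possible because the labels carry no replicate numbers. The depth of 100 high stromal-like cells limits rare members: Hsph1 rested on 12 UMIs and Dnajc16 on 10.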
